A study of Homo sapiens with 38 samples.

Results

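The palbociclib screen of SNU-398 compared guide counts of 2 Palbociclib libraries with those of 2 vehicle libraries, 4 of the 38 samples of the series. SNU-398 is a human hepatocellular carcinoma (HCC) line. It had been made to express Cas9 together with mCherry and sorted, was infected at low multiplicity with TKOv3, a genome-wide knockout library, and was selected with puromycin. Cells of the Palbociclib group then grew for 14 days at the concentration that inhibits growth by 20% (IC20), those of the vehicle group grew for the same 14 days in DMSO, and a baseline group (T0) was harvested at day 0. The libraries of the vehicle group are labelled T1. They were taken as vehicle because the study describes 8 groups per line and the labels name the other 7. An Abemaciclib group of SNU-398, and the Palbociclib and vehicle groups of Hep3B, another HCC line, served for comparison. Their inhibitors were also given at IC20 for 14 days. All groups carry Cas9 and the same knockout library, and each SNU-398 group is a share of the same infected cells. Members were found by the line and the group in the labels, with guides grouped by the gene that the table gives and LacZ, luciferase and EGFP guides as controls.

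Palbociclib blocks CDK4 and CDK6, the kinases that bind D-type cyclins in G1 and phosphorylate RB1 and its relatives RBL1 and RBL2. Phosphorylated RB1 releases E2F factors, which switch on genes for DNA replication, and cells that have lost RB1 are known to need CDK4 and CDK6 less. The INK4 proteins CDKN2A to CDKN2D bind the same kinases and hold them inactive, while the CIP/KIP proteins CDKN1A to CDKN1C act on CDK2 complexes as well. In a pooled screen, the guide that integrated in a cell serves as its barcode, so that the count of a guide follows the number of cells that lost the gene. Guides to a resister become rarer with the inhibitor than with vehicle (NormZ below 0), and guides to a sensitizer become more frequent (NormZ above 0), in the terms of the study.

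The SNU-398 table held 66582 guides for 18036 genes and 135 control guides, 93 to LacZ, 21 to EGFP and 21 to luciferase. Total counts were 21997138 and 14647192 in the Palbociclib libraries and 21983238 and 11558112 in the vehicle libraries. No count was listed for 35.9% and 37.4% of the guides in the Palbociclib libraries, against 25.3% and 29.3% in the vehicle libraries and 10.7% and 12.6% at T0. Coverage was uneven, since the most abundant 10% of guides held 80.7% to 81.1% of the counts in these 4 libraries, and 43.3% of guides reached a mean vehicle count of 30. Even numbers made up 91.5% to 98.1% of the counts in the 4 libraries, so a count may not be 1 read. On 64186 guides that both lines share, log2 counts of the Palbociclib libraries followed T0 of SNU-398 (Pearson's r = 0.944 and 0.943 with its replicate 1) more closely than T0 of Hep3B (0.928 for both), as the label says. Lenvatinib and Regorafenib libraries, which enter the spread that edgeR uses, followed T0 of the lines nearly alike (0.937 to 0.946 for SNU-398 and 0.936 to 0.946 for Hep3B), and without them edgeR gave 3832 lower and 3429 higher genes, an alternative chosen after seeing the data.

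Replicate libraries of a group lay close to each other. After division of all counts by 2, the chi-square per guide between the 2 libraries was 1.32 for Palbociclib and 1.27 for vehicle, where counting noise alone gives about 1, and it was 17.7 between the 2 Erastin libraries of this line. Whether the 2 libraries of a group stem from different cultures is stated by no label or method. All p-values, SEs and intervals below therefore measure the spread between these libraries or between guides, which may be technical, and do not cover another culture. Control guides show how far guides moved without a target. Among 26 control guides with a mean vehicle count of at least 200, the mean log2 ratio of Palbociclib to vehicle spanned -0.53 to 0.36 (percentiles 5 to 95), against -0.58 to 0.45 among all 11857 such guides. Among 59 control guides with a mean vehicle count of at least 30 the span was -1.03 to 0.76. Of these, 20 were lower with Palbociclib in both pairs of libraries, against 43.2% of the 28833 guides with such counts, and 23 were higher in both, against 35%.

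After adjustment over all genes, guides to a small set of genes were rarer with Palbociclib than with vehicle. NormZ adds the scaled log2 ratios of a gene's guides over both pairs of libraries, and its one-sided p tells how far a gene stands from the bulk of the genes. At p under 0.01, 286 of 18036 genes were resisters (1.59%) and 171 were sensitizers (0.948%). NormZ is rescaled over all genes, so this threshold itself passes a share near 0.01 in each direction if values are normally distributed. The share of sensitizers was not above that. At an adjusted p under 0.05 (Benjamini-Hochberg over all genes), 7 genes remained as resisters (0.0388%), namely SOD2, CDC20, WDR82, CDKN2D, ING1, KLF13 and AKT1. No sensitizer passed, and the smallest adjusted p of a sensitizer was 0.168. Guide log2 ratios of the 2 pairs correlated at r = 0.72 over all guides, which share their scaling and targets. At least 2 guides lay beyond 1 scaled unit in both pairs for 62.6% of the 286 resisters and for 36.3% of the 171 sensitizers, against 2.66% and 0.865% of all genes in those directions, but NormZ itself was built from these values.

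The quasi-likelihood test of edgeR, applied to the gene sums of each library, gave many more calls. At an adjusted p under 0.05, 3871 of 17949 genes were lower with Palbociclib (21.6%) and 3409 were higher (19%), a total of 40.6%. Scaling by olfactory receptor and control guides gave 5537 lower and 2120 higher genes and moved the median log2 fold change of all genes to -0.10. Tested guide by guide, edgeR called 33.9% of 52433 guides, 29.4% of 109 control guides and 31.8% of 970 olfactory receptor guides. A call by edgeR was thus nearly as frequent among control and olfactory receptor guides as among all guides. Its fold changes are given below for their size, and its adjusted p-values are to be read against these shares.

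**Figure D1:**
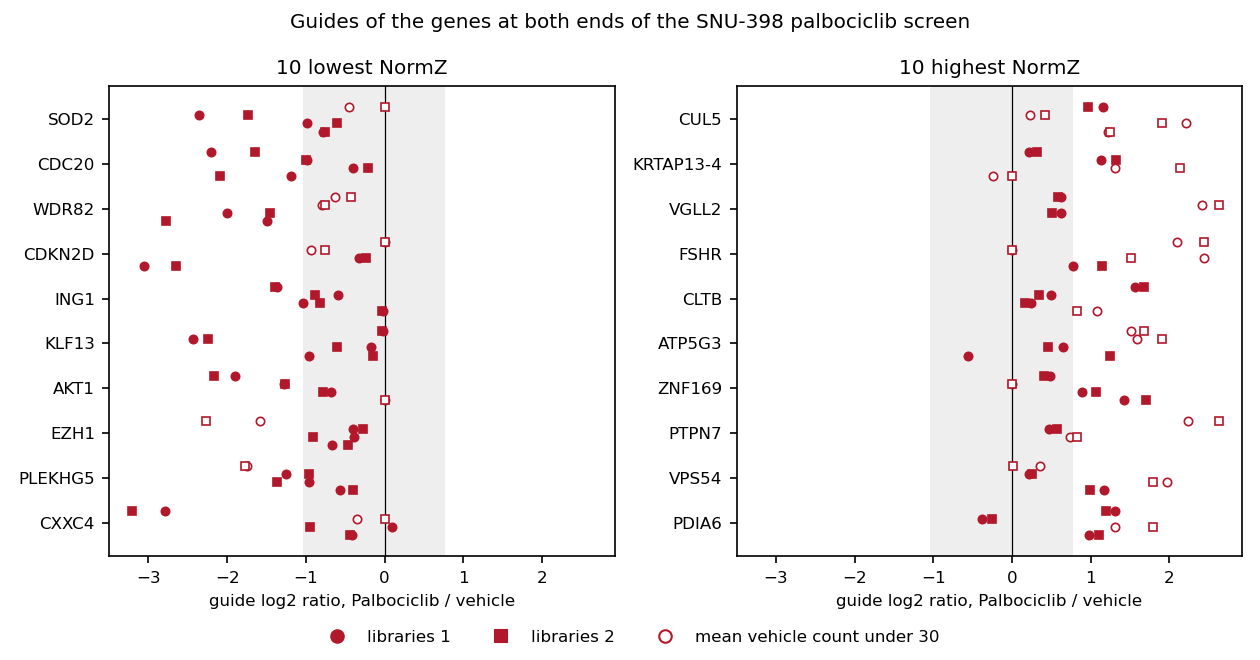
Log2 ratio of Palbociclib to vehicle for each guide (point) of the 10 genes with the lowest and the 10 with the highest NormZ, with circles for libraries 1, squares for libraries 2, open symbols for guides under a mean vehicle count of 30, and a grey band from -1.03 to 0.76, the central 90% of 59 control guides. Most low points belong to well covered guides, while many of the high points are open symbols.

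SOD2, the superoxide dismutase of the mitochondrial matrix, had the lowest NormZ, -5.72 (adjusted p = 9.7e-05). Counts of single guides are given scaled to a library total of 1e+07 (scaled counts). Of its 4 guides, numbered by position along the gene, guide 2 was at 11.8 and 20.5 scaled counts in the Palbociclib libraries, against 81.0 and 79.6 in the vehicle libraries. Guide 3 was at 155 and 180 with Palbociclib, against 313 and 277 with vehicle. Guide 4 was at 338 and 307 with Palbociclib, against 588 and 523 with vehicle. All 3 were lower in both Palbociclib libraries than in either vehicle library, and guide 1 had no more than 4 counts anywhere. Summed over guides, SOD2 fell by 0.87 on the log2 scale (SE 0.07, edgeR adjusted p = 1.73e-13). It was called at an adjusted p under 0.05 in 13 of 13 alternative computations of NormZ.

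CDC20, which activates the anaphase-promoting complex so that sister chromatids can part, followed with a NormZ of -4.85 (adjusted p = 0.00545). Guide 1 was at 10.9 and 13.7 scaled counts with Palbociclib, against 68.2 and 53.6 with vehicle. Guide 4 was at 23.6 and 15.0 with Palbociclib, against 60.05 and 80.5 with vehicle. Its 4 guides were all lower in both Palbociclib libraries than in either vehicle library, and guide 3, with the highest counts, differed least (253 and 295 with Palbociclib, against 335 and 343 with vehicle). The summed log2 fold change was -0.65 (SE 0.08, edgeR adjusted p = 2.09e-08). The log2 fold change of CDC20 in vehicle over T0 was -0.11 (SE 0.08, edgeR adjusted p = 0.247). Among the 7 genes it was also below 0 for SOD2 (-0.18, edgeR adjusted p = 0.0277), WDR82 (-0.39, edgeR adjusted p = 0.0176) and AKT1 (-0.29, edgeR adjusted p = 0.00398). It was above 0 for CDKN2D (0.04), ING1 (0.11) and KLF13 (0.18).

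WDR82, a subunit of the SET1 complexes that methylate histone H3 at lysine 4, had a NormZ of -4.74 (adjusted p = 0.00632). Guide 3 was at 26.4 and 39.6 scaled counts with Palbociclib, against 121 and 118 with vehicle. Guide 4 was at 14.6 and 4.10 with Palbociclib, against 50.04 and 57.1 with vehicle. Both groups stood apart, and guides 1 and 2 had at most 8 counts in any of the 4 libraries. The summed log2 fold change was -2.06 (SE 0.17, edgeR adjusted p = 1.06e-13), the largest fall among the 7 genes. WDR82 also kept its adjusted p under 0.05 in 13 of 13 alternatives. The other 5 of the 7 genes stayed resisters at p under 0.01 in all 13, but kept the adjusted threshold in 11 (CDC20), 10 (CDKN2D), 9 (ING1), 8 (KLF13) and 7 (AKT1) of them.

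CDKN2D, the INK4 protein p19, was the only CDK inhibitor among the calls, with a NormZ of -4.33 (adjusted p = 0.0273). The value rested mostly on guide 4, which was at 6.36 and 8.88 scaled counts with Palbociclib, against 89.2 and 82.2 with vehicle. Guide 3, which held 92.4% of the gene's vehicle counts, was at 893 and 918 with Palbociclib, against 1119 and 1081 with vehicle. Both guides were lower in both Palbociclib libraries, by very different amounts, with mean log2 ratios of -2.85 and -0.28. Guides 1 and 2 had at most 10 counts in the 4 libraries. Summed over guides, CDKN2D fell by 0.37 on the log2 scale (SE 0.05, edgeR adjusted p = 2.64e-07).

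**Figure D2:**
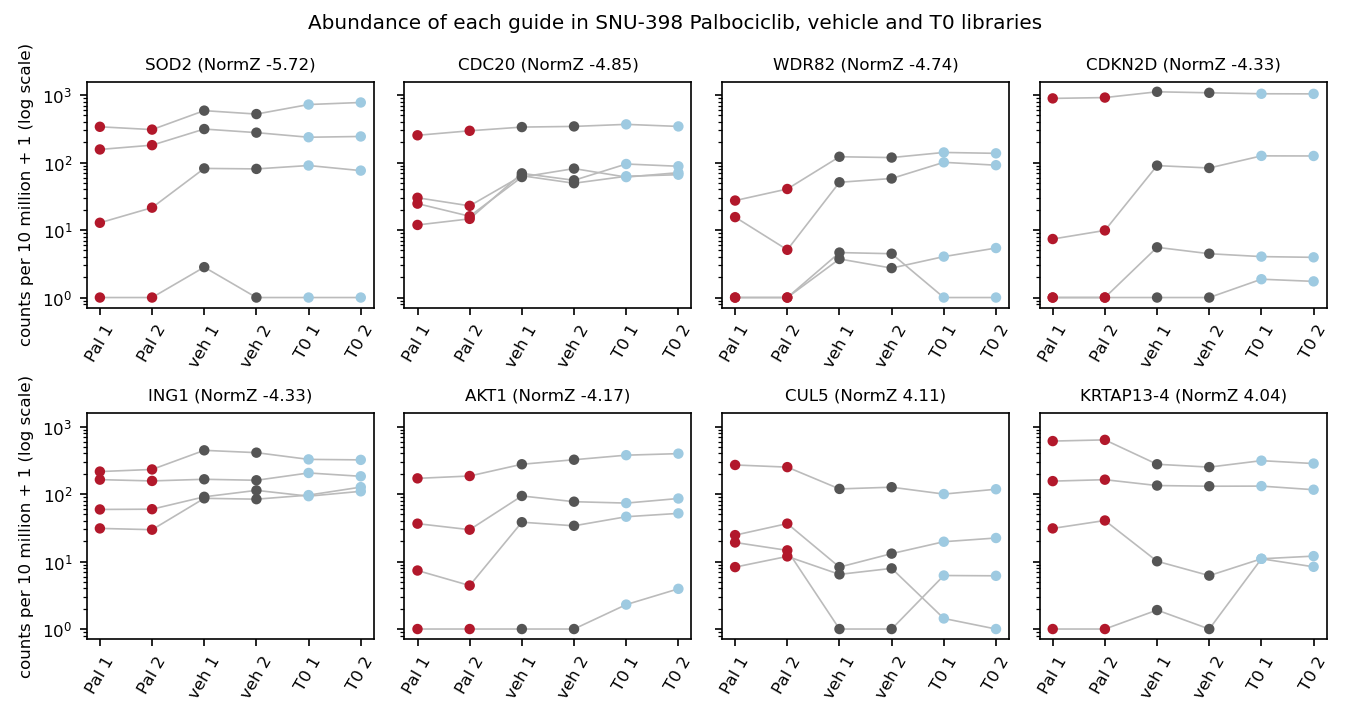
Scaled counts plus 1 (log scale) of each guide (line) of 6 resisters and 2 sensitizers in the Palbociclib (red), vehicle (grey) and T0 (blue) libraries of SNU-398. Vehicle and T0 points of a guide mostly lie at one level, and the Palbociclib points lie below them in SOD2, CDC20 and WDR82 and above them in CUL5.

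ING1, a reader of methylated histone H3 in the SIN3 deacetylase complex, had a NormZ of -4.33 (adjusted p = 0.0273). Guide 3 was at 215 and 231 scaled counts with Palbociclib, against 444 and 410 with vehicle. Guide 4 was nearly level, at 163 and 156 with Palbociclib and 165 and 159 with vehicle. The other 2 guides were lower with Palbociclib without overlap. KLF13, a zinc finger transcription factor, reached its NormZ of -4.27 (adjusted p = 0.0298) mainly through 1 guide of 4, at 24.6 and 34.1 scaled counts with Palbociclib, against 155 and 180 with vehicle. The guide with 86.4% of the KLF13 vehicle counts was at 1515 and 1475 with Palbociclib and 1541 and 1511 with vehicle.

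AKT1, the kinase that carries PI3K signals to cell growth and survival, had a NormZ of -4.17 (adjusted p = 0.039, under 0.05 in 7 of 13 alternatives). Guide 1 was at 6.36 and 3.41 scaled counts with Palbociclib, against 37.3 and 32.9 with vehicle. Guide 2 was at 35.5 and 28.7 with Palbociclib, against 92.8 and 76.1 with vehicle. Guide 3 was at 170 and 184 with Palbociclib, against 276 and 322 with vehicle. These 3 guides were lower without overlap, and guide 4 had no count in the 4 libraries. The summed log2 fold change was -0.94 (SE 0.09, edgeR adjusted p = 1.84e-11).

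EZH1, a histone H3 lysine 27 methyltransferase of Polycomb complex PRC2, PLEKHG5, and CXXC4, a zinc finger protein that binds Dishevelled, completed the 10 lowest values. Their NormZ were -4.00, -3.99 and -3.94, with adjusted p from 0.0675 to 0.0726. Each of the 4 guides of EZH1 and of PLEKHG5 was lower in both pairs, and 2 of 4 were for CXXC4. Guide 1 of CXXC4 had 6 and 2 counts with Palbociclib, against 107 and 62 with vehicle. All 10 genes stayed resisters in 13 of 13 alternatives.

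The leading sensitizers had smaller NormZ in size than the leading resisters. No guide with a mean vehicle count of 30 or more was held by 15 of the 171 sensitizers, 2 of the 286 resisters and 13.4% of all genes. CUL5, the scaffold of ubiquitin ligases with SOCS-box adaptors, had the highest NormZ, 4.11 (adjusted p = 0.168). Guide 1 was at 269 and 250 scaled counts with Palbociclib, against 118 and 125 with vehicle. Guide 3 was at 18.2 and 13.7 with Palbociclib and at 0 counts in both vehicle libraries, and guide 4 was at 23.6 and 35.5 with Palbociclib, against 7.28 and 12.1 with vehicle. All 4 guides were higher in both Palbociclib libraries than in either vehicle library. The summed log2 fold change was 1.22 (SE 0.13, edgeR adjusted p = 2.52e-10). Only 1 CUL5 guide had a mean vehicle count of 30 or more.

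KRTAP13-4, a keratin-associated protein of hair, had a NormZ of 4.04 (adjusted p = 0.168). Guide 2 was at 609 and 635 scaled counts with Palbociclib, against 276 and 250 with vehicle. Guides 1 and 3 were also higher in both pairs, and guide 4 had at most 2 counts in these 4 libraries, against 46 and 20 at T0. VGLL2, a cofactor of TEAD factors known from muscle, had a NormZ of 4.03, and FSHR, the receptor of follicle-stimulating hormone, one of 3.87. Guide 2 of VGLL2 had 58 and 38 counts with Palbociclib, against 2 and 0 with vehicle. Guide 1 of FSHR had 70 and 60 counts with Palbociclib, against 8 and 4 with vehicle, and 90 and 74 at T0. Groups did not overlap for these guides, but the vehicle counts were close to 0.

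The remaining 6 of the 10 highest values were CLTB (clathrin light chain B, 3.72), ATP5G3 (a c-ring subunit of ATP synthase, 3.70), ZNF169 (a zinc finger protein, 3.52), PTPN7 (a tyrosine phosphatase of blood cells, 3.48), VPS54 (a subunit of the GARP tethering complex, 3.46) and PDIA6 (a disulfide isomerase of the endoplasmic reticulum, 3.38). Guide 1 of CLTB was at 308 and 309 scaled counts with Palbociclib, against 101 and 93.4 with vehicle and 23.5 and 26.5 at T0, so that it was higher with vehicle than at T0 as well. Guide 1 of PDIA6 was at 218 and 213 with Palbociclib, against 85.5 and 90.0 with vehicle, while guide 2 was lower, at 237 and 228 against 309 and 273 with vehicle. When guides under a mean vehicle count of 30 were left out, ATP5G3, FSHR, PDIA6, PTPN7, VGLL2 and VPS54 lost the call, with NormZ of 1.28 to 2.30. That setting kept 41 of the 171 sensitizers (24%) and 150 of the 286 resisters (52.4%).

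The genes of the drug's own targets were too few to be set apart from the shares over all genes. CDK4 and CCND2 had 0 guides with a mean vehicle count of 30 or more, and CCND3 had 1. Of 8 genes for CDK4, CDK6, D-type cyclins and pocket proteins, 0 were called at p under 0.01 in either direction by NormZ, against 1.59% and 0.948% of all genes, and 5 of the 8 were below 0. The alternatives that measured them, 11 for CCND2, 12 for CDK4 and 13 for each of the other 6, called none of them either. Their median NormZ was -0.16, against 0.03 for all genes. The loss of RB1, which is known to bypass CDK4 and CDK6, gave a NormZ of -0.29. Guide 1 of RB1 was at 135 and 108 scaled counts with Palbociclib, against 126 and 133 with vehicle. Guide 2 was at 54.6 and 42.3 with Palbociclib, against 63.7 and 67.5 with vehicle, and the other 2 guides had at most 2 counts in the 4 libraries. Guide 1 overlapped between groups and guide 2 did not, and summed over guides RB1 had a log2 fold change of -0.17 (95% interval, taken as 1.96 SE, -0.45 to 0.11). In vehicle over T0 RB1 rose by 0.82 on the log2 scale (SE 0.14, edgeR adjusted p = 6.03e-06), through guide 1, which had been at 41.3 and 33.8 scaled counts at T0.

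CDK4 could hardly be measured. Its 3 guides had 0 to 8 counts in the 4 libraries, and its NormZ was -0.02. CDK6 was well covered, with 4 guides above a mean vehicle count of 30 and a NormZ of 1.05. Guides 2 and 4, which held most counts, were at 3153 and 2938 and at 1386 and 1335 scaled counts with Palbociclib, against 3102 and 3064 and 1535 and 1410 with vehicle. Guide 1 was higher with Palbociclib, at 195 and 228 scaled counts, against 127 and 155 with vehicle. Guide 3 was also higher without overlap, at 60.9 and 58.7 with Palbociclib, against 33.7 and 46.7 with vehicle. The summed log2 fold change of CDK6 was 0.0023 (SE 0.03), and it was -0.09 (edgeR adjusted p = 0.0302) when scaled by olfactory receptor and control guides. Among the cyclins, CCND1 had a NormZ of 0.21 with guides on both sides of 0 (guide 4 at 49.1 and 31.4 scaled counts with Palbociclib, against 12.7 and 24.2 with vehicle, and guide 1 lower), CCND2 had -0.51 with 1 of 4 guides above 0 counts in these libraries, and CCND3 had -1.19. RBL1 was at 0.40 and RBL2 at -1.20.

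Among 7 CDK inhibitors, CDKN2D passed and 6 did not, against 1.59% of all genes. CDKN2C, the INK4 protein p18, had a NormZ of -2.22 (adjusted p = 0.72, Benjamini-Hochberg over all genes), and CDKN2B, p15, one of -1.89. CDKN2A, which encodes p16, was at -0.40. The CDKN2C guide with 96.4% of the vehicle counts had 2199 and 1478 counts with Palbociclib, against 2647 and 1442 with vehicle, with log2 ratios of -0.27 and -0.30 after scaling. CDKN1C, p57, had a NormZ of 2.13, but of -0.51 when only guides with a mean vehicle count of at least 30 were used. CDKN1A, p21, was at 0.05 and CDKN1B, p27, at -0.15.

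**Figure D3:**
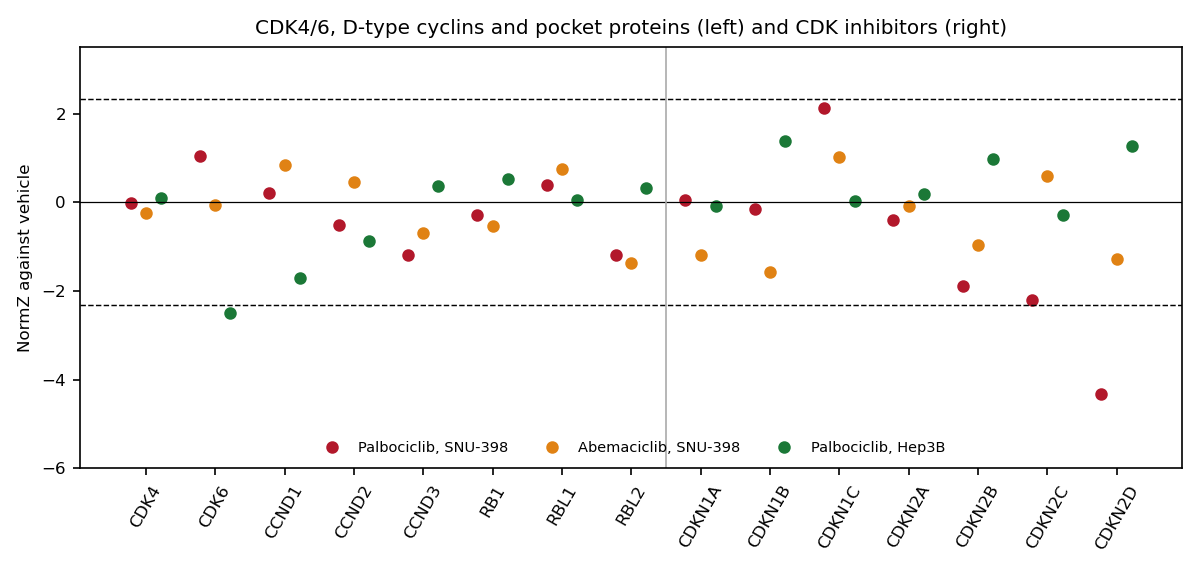
NormZ against vehicle of 8 genes for CDK4, CDK6, D-type cyclins and pocket proteins and of 7 CDK inhibitors in the Palbociclib (red) and Abemaciclib (orange) screens of SNU-398 and in the Palbociclib screen of Hep3B (green), with dashed lines at 2.33 and -2.33, where p is 0.01. In SNU-398 with Palbociclib, CDKN2D at -4.33 is the only one of the 15 genes beyond a line.

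Beyond the targets, calls in the cell cycle lists and the lists after them are to be read against the shares over all genes. These were 1.59% for resisters and 0.948% for sensitizers, so 0 calls in lists of these sizes lie near them. In the list of CDK1, CDK2 and their regulators, 1 of 17 genes was a resister, against 1.59% of all genes, namely CCNA2, the cyclin of S phase and G2, with a NormZ of -3.20. Of 19 genes of the anaphase-promoting complex and its partners, 2 were resisters (10.5%, against 1.59% of all genes), with a list median of -0.39. These were CDC20 and UBE2C, an E2 enzyme of the complex (-3.26). UBE2C guides were lower in both pairs for 4 of 4 guides. The 17 genes of E2F factors and the DREAM and MuvB complexes had a median of -0.91 and 12 values below 0, but 0 resisters and 1 sensitizer, TFDP2, a dimer partner of E2F, at 2.56, which kept the call in 8 of 13 alternatives. Of 45 DNA replication genes, the single-strand binding subunit RPA3 was a resister (-3.13) and the polymerase subunit POLA1 a sensitizer (2.82), against 1.59% and 0.948% of all genes. CENPC, a kinetochore protein, was the only call among 30 spindle genes (-2.81), a resister share of 3.33% against 1.59% of all genes. None of 19 cyclin-degrading ligase genes, 24 neddylation and COP9 genes or 19 genes of p53 and DNA damage checkpoints passed.

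RPTOR, the subunit that defines mTORC1, had a NormZ of -3.39 and was the other resister beside AKT1 among 38 genes of PI3K and mTORC1, whose median was 0.03. RPTOR summed to 5.27 and 4.70 CPM (the usual scaling of gene sums to the library total by edgeR) with Palbociclib, against 14.7 and 14.3 with vehicle, a log2 fold change of -1.53 (SE 0.17, edgeR adjusted p = 4.36e-10). The groups did not overlap. DVL1, a Dishevelled protein of Wnt signalling, was the only call among 28 Wnt genes (-3.16), and MXD3, a MAX partner, the only one among 12 MYC network genes (-2.73). MXD3 lost the call without guides of low counts and had 89.1% of its vehicle counts in a guide that was slightly higher with Palbociclib. None of 34 receptor, RAS and MAP kinase genes or 24 Hippo genes was called. BCL2L1, which encodes the survival factor BCL-XL, was the only call among 24 apoptosis regulators (-2.39), and kept the call in 9 of 13 alternatives.

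The list of COMPASS complexes and WDR82, for histone H3 lysine 4 methylation, held the largest share of resisters among lists with over 10 members. It was written with earlier results of these data known and is named after WDR82, so its rank is not a test. Of 18 genes of COMPASS complexes and WDR82, 3 were resisters (16.7%, against 1.59% of all genes), 0 were sensitizers, and 14 had a NormZ below 0, with a median of -0.71. Beside WDR82 these were KMT2A, the methyltransferase MLL1 (-3.64), and MEN1, menin, which ties MLL1 to chromatin (-2.75). KMT2A summed to 36.6 and 35.5 CPM with Palbociclib, against 64.3 and 68.8 with vehicle. MEN1 summed to 253 and 265 CPM with Palbociclib, against 330 and 329 with vehicle. Neither overlapped between groups. The MEN1 guide with 86.7% of the counts was lower in both pairs, guide 2 was on both sides of 0, and the gene lost the call in 4 of 13 alternatives. None of 22 SWI/SNF genes, 33 Mediator genes or 18 genes of transcription CDKs and their cyclins passed.

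SOD2 had the lowest value among the redox genes as well. In the list of superoxide and peroxide defence, 2 of 27 genes were resisters, against 1.59% of all genes, SOD2 and GPX5, a secreted glutathione peroxidase known from the epididymis (-2.47, called in 9 of 13 alternatives), and the list median was 0.0016. Of 74 peroxisome genes only SOD2, which that list also holds, passed. PSTK, a kinase needed to make selenocysteine on its tRNA, had a NormZ of -1.96 and did not reach the threshold for a resister (adjusted p = 0.843, Benjamini-Hochberg over all genes). Guide 1, with most of the vehicle counts, was at 3080 and 3086 scaled counts with Palbociclib, against 3999 and 3730 with vehicle. That guide did not overlap between groups, while guide 2 did, at 73.65 and 57.35 with Palbociclib and 56.4 and 72.7 with vehicle. Summed over guides, PSTK fell by 0.30 on the log2 scale (SE 0.04, edgeR adjusted p = 1.04e-08). By NormZ PSTK was not called in any of 13 alternatives. It was a resister in both screens used for comparison, where its NormZ lay beyond -2.33. The values were -3.603 with Abemaciclib in SNU-398, against the same vehicle libraries, and -4.015 with Palbociclib in Hep3B. The direct NormZ of PSTK between the drugs was 1.04, and the difference between the lines was 1.45 standard units. Neither passed the adjusted threshold, so PSTK was not shown to differ between drugs or lines. PAPSS2, an enzyme that makes the sulfate donor PAPS, was the only call among 21 selenium genes (-2.57, kept in 10 of 13 alternatives). Of its 3 guides, 1 was lower and 1 was higher in both pairs. Only 1 of them, with 91.4% of the vehicle counts, reached a mean vehicle count of 30. PGD, of the pentose phosphate pathway, was the only call among 15 genes of cystine import and glutathione (-2.87). None of 26 ferroptosis genes or 33 folate genes passed.

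The housekeeping complexes described next had medians below that of all genes (0.03), from -0.54 for the proteasome to -0.08 for the respiratory complexes other than complex I. Mediator (0.32) and DNA replication genes (0.21) had medians above it. Of 75 mitochondrial ribosome genes 3 were resisters, against 1.59% of all genes, MRPL20 (-3.46), MRPS18B (-3.26) and MRPS14 (-3.22), and RPS19 of the cytosolic ribosome was a resister as well (-3.31). MRPL20 rested on 1 of its 3 guides, with log2 ratios of -1.15 and -1.36, while its other guides were near or above 0. The proteasome had a median of -0.54 with 1 resister of 48 genes, PSMF1 (-2.83), and the spliceosome core had 1 of 39, SNRPD1 (-2.65), again beside 1.59% of all genes. PSMF1 kept the call in 10 of 13 alternatives. Sensitizers were 1 of 43 genes of complex I, NDUFAB1 (2.41, called in 7 of 13 alternatives), and 1 of 48 genes of the other respiratory complexes, ATP5G3, against 0.948% of all genes. SNRPD1 guides had already fallen in vehicle over T0 (log2 fold change -0.74, edgeR adjusted p = 8.93e-07), as those of 19.9% of all genes had by edgeR.

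The V-ATPase, the proton pump that acidifies lysosomes, had a median of -0.91, with 17 of 24 genes below 0. Its 2 resisters, against 1.59% of all genes, were the pore subunit ATP6V0C (-3.72) and ATP6V1B2 (-2.73). ATP6V0C summed to 454 and 453 CPM with Palbociclib, against 594 and 586 with vehicle and 798.8 and 799.5 at T0. These 3 groups did not overlap, but guide 3 held 97.0% of the vehicle counts. That guide was at 5757 and 5686 scaled counts with vehicle, against 7873 and 7890 at T0. Guide 4 was also lower with vehicle than at T0, while guide 2 was higher, at 93.7 and 109 against 84.3 and 70.6. Summed over guides, the log2 fold change of vehicle over T0 was -0.44 (SE 0.03, edgeR adjusted p = 1.09e-16). Among 40 lysosome genes CTSA was the 1 resister (-2.39), and it kept the call in 7 of 13 alternatives. None of 6 palbociclib-metabolising enzymes was called, and their NormZ ranged from -1.70 to 0.96.

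Olfactory receptors, which detect odorants in the nose, were set beside the other lists as genes with no known role in growth. Of 339 such genes 4 were resisters (1.18%, against 1.59% of all genes) and 9 were sensitizers (2.65%, against 0.948%), with a median of 0.17. The lowest was OR7D2 (-3.39), and OR5T3 (-3.34), with 1 guide, OR10Q1 (-2.83) and OR1D5 (-2.34) followed. The highest were OR4P4 (3.29), OR52B4 (2.83), OR1S2 (2.64) and OR1J2 (2.62). These values overlap those of the calls in the lists above, apart from SOD2, CDC20, WDR82, CDKN2D, AKT1, ATP6V0C, KMT2A, MRPL20 and ATP5G3, which lay beyond them.

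**Figure D4:**
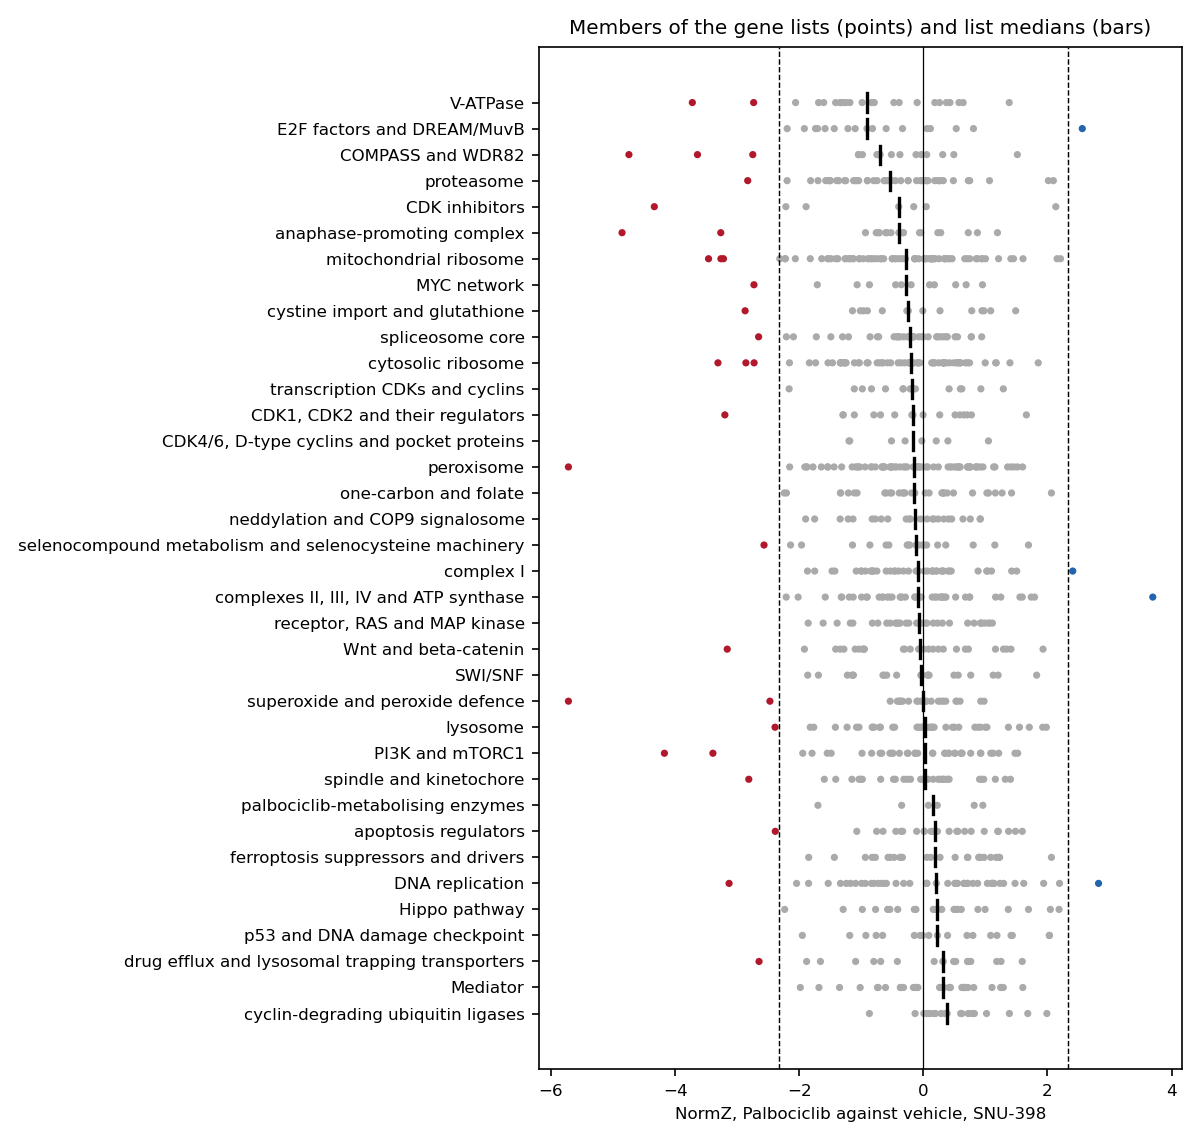
NormZ of Palbociclib against vehicle in SNU-398 for the members of 36 gene lists, 1 point per gene, with list medians as black bars, resisters in red, sensitizers in blue, and dashed lines at 2.33 and -2.33. Medians range from -0.91 for the V-ATPase to 0.38 for cyclin-degrading ubiquitin ligases, and most lists hold 0 to 3 calls.

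Abemaciclib inhibits the same kinases, and its libraries were set directly against those of Palbociclib, both at their IC20, without the vehicle libraries. At p under 0.01, 262 of 18036 genes were lower with Palbociclib (1.45%) and 218 were higher (1.21%). At an adjusted p under 0.05 over all genes for this 1 pair of compounds, 4 were lower (0.0222%), EZH1 (-4.98), FBXL18 (-4.49), MON2 (-4.42) and BEST1 (-4.30), and 0 were higher. With well counted guides only, 1 gene was lower at this threshold and none of these 4 was, and 1 and 3 genes were lower without replicate 1 and without replicate 2. EZH1 summed to 66.0 and 68.4 CPM with Palbociclib, against 100.2 and 94.3 with Abemaciclib. FBXL18, an F-box protein, summed to 104 and 106 CPM with Palbociclib, against 155 and 162 with Abemaciclib. Neither overlapped between the drugs. Their log2 differences were -0.54 (SE 0.06) and -0.60 (SE 0.05).

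MON2, a protein of traffic between endosomes and the Golgi, summed to 13.3 and 13.8 CPM with Palbociclib, against 30.2 and 28.4 with Abemaciclib. In vehicle it lay between, at 21.3 and 19.5 CPM, without overlap among the 3 groups. The 4 guides of BEST1, a chloride channel, were all lower with Palbociclib than with Abemaciclib. Guide 4 was at 16.4 and 9.56 scaled counts with Palbociclib, against 70.1 and 48.1 with Abemaciclib. Guide 3 was at 103 and 83.3 with Palbociclib, against 159 and 152 with Abemaciclib. Guides 1 and 2 had 0 counts with Palbociclib and at most 22 with Abemaciclib. The 3 highest values were NPR3 (4.42, adjusted p = 0.0898), PLGRKT (4.13) and VPS54 (4.05). NPR3, the clearance receptor of natriuretic peptides, had 1 guide with 1260 and 808 counts with Palbociclib, against 290 and 172 with Abemaciclib and 1032 and 557 with vehicle, so that this guide was lowest with Abemaciclib among the 3 groups.

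SOD2 was low with both drugs. It summed to 51.4 CPM in both libraries with Palbociclib, against 45.9 and 55.55 with Abemaciclib and 98.5 and 87.8 with vehicle, and the log2 difference between the drugs was 0.03 (95% interval -0.12 to 0.18). CDC20 differed by -0.125 (95% interval -0.29 to 0.04). The NormZ against vehicle of these genes were -5.72 and -4.85 with Palbociclib and -6.77 and -3.40 with Abemaciclib, with the vehicle libraries shared. Against the same vehicle libraries, WDR82 was at -3.215 and KMT2A at -3.56 with Abemaciclib, so both were low with both drugs. Their direct NormZ between the drugs were -1.56 and -0.40. MEN1 was at 0.22 with Abemaciclib, with a direct NormZ of -3.625 that did not pass the adjusted threshold. For CDKN2D the direct NormZ was -2.96, for AKT1 -3.13 and for ING1 -3.93, and none of these passed the adjusted threshold. RB1 differed by 0.03 (95% interval -0.25 to 0.31) and CDK6 by 0.03 (95% interval -0.04 to 0.09). The 95% intervals given here cover neither another culture nor the choice of scaling. The V-ATPase medians were -0.91 with Palbociclib and -0.96 with Abemaciclib.

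Palbociclib in Hep3B shares no library with the SNU-398 screen. Of 18025 genes in both tables, 912 had an unadjusted p under 0.05 for the difference between SNU-398 and Hep3B (5.06%). NormZ is rescaled over all genes in each line, and the lines were nearly uncorrelated. This threshold itself therefore passes a share near 0.05 if values are normally distributed, and the share found was near that. At an adjusted p under 0.05, 0 genes passed, and the smallest adjusted p was 0.174. Across the 18025 genes, which are not independent replicates and share guide design, the NormZ of the lines correlated at r = 0.04. In Hep3B 1.94% of genes were resisters and 0.716% were sensitizers. Of the SNU-398 resisters, 23 (8.04%) were also resisters in Hep3B, where they made up 6.59% of the list. Only 1 gene, LPCAT2, was a sensitizer in both, 0.585% of the SNU-398 list and 0.775% of the Hep3B list.

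The 23 shared resisters included SOD2 (-5.72 in SNU-398 and -2.62 in Hep3B), WDR82 (-4.74 and -3.40 in the same order), ING1 (-4.33 and -2.38), MRPL20 (-3.46 and -3.55) and MEN1 (-2.75 and -2.78). VHL, which targets hypoxia-inducible factors for destruction, is named here after its values were seen, at -2.89 in SNU-398 and -3.48 in Hep3B. The other leading genes of SNU-398 were not resisters in Hep3B. CDC20 was at 0.0090 there, AKT1 at 0.037, CDKN2D at 1.27 and EZH1 at 1.62, while KLF13 was at -0.73, PLEKHG5 at -0.47 and CXXC4 at -1.34. The difference between lines was -3.44 standard units for CDC20, -3.96 for CDKN2D and -3.98 for EZH1, with adjusted p of 0.39, 0.174 and 0.174.

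The widest gaps between lines were those of MOBP, a myelin protein (3.23 in SNU-398 and -2.88 in Hep3B), WDR53, a WD repeat protein (2.83 and -3.18), and CDK9, the kinase of elongating RNA polymerase II (0.60 and -4.97). On the low side were ZNF75A (-3.37 and 2.37), SASH3, an adaptor of lymphocytes (-3.52 and 2.14), and EZH1. The signs were opposite for these 6 genes. MOBP, WDR53 and ZNF75A passed the threshold of 0.01 in both lines, SASH3 and EZH1 in SNU-398 and CDK9 in Hep3B, but no difference passed the adjusted threshold. CDK6 was at 1.05 in SNU-398 and -2.50 in Hep3B, a difference with an adjusted p of 0.805.

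**Figure D5:**
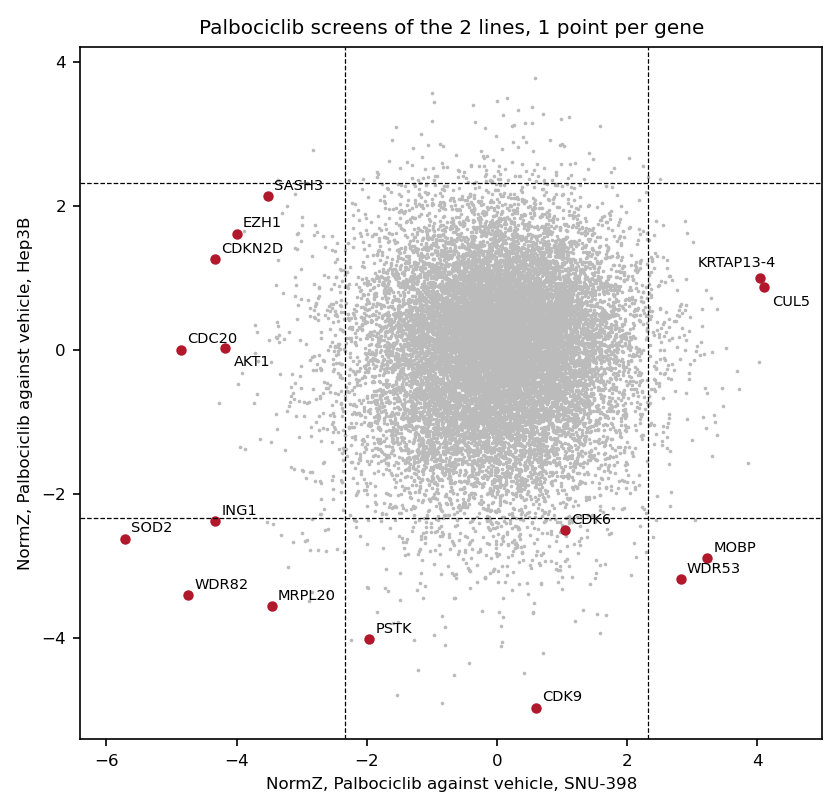
NormZ of Palbociclib against vehicle in SNU-398 (horizontal) and Hep3B (vertical), 1 point per gene for 18025 genes, with dashed lines at 2.33 and -2.33 and selected genes in red. SOD2, WDR82, ING1 and MRPL20 lie low on both axes, CDC20 (-4.85 and 0.0090), AKT1 and CDKN2D lie low on the horizontal axis, and CDK9 (0.60 and -4.97) on the vertical one.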

How the data were processed

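Guides were counted in genomic DNA of 4 SNU-398 libraries, 2 with Palbociclib and 2 with vehicle, and in the other libraries used for comparison. The deposited values are raw counts of each guide, for which the authors amplified the guide inserts by PCR and used Bowtie2. Its version, its settings and the genome build are not stated here, so guides are named by their order in the gene. Columns of the 6 RNA-seq libraries, and the authors' own comparisons of them, were not used. No column was left without a sample (0 others).

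NormZ followed the steps of DrugZ, written with pandas 2.3.3, scipy 1.17.1 and numpy 2.4.6 for Python 3.11.15. Counts were scaled to 1e+07 per library and 5 was added. Palbociclib 1 was divided by vehicle 1 and Palbociclib 2 by vehicle 2, the log2 ratios were scaled by the standard deviation among 1000 guides of like vehicle abundance, and values were summed per gene and rescaled over all genes. Calls used a one-sided p under 0.01, or an adjusted p under 0.05. The difference between lines was that of the NormZ values divided by the square root of 2, with a two-sided p. Counts per gene and per guide were tested in R 4.3.3 with edgeR 4.0.16 (TMM, filterByExpr, quasi-likelihood) over 14 SNU-398 libraries, without Erastin, whose 2 libraries differed from each other far beyond counting noise. The common biological coefficient of variation was 0.0516 for genes. Equal numbers were not found to pair libraries of different groups, since deviations of Palbociclib and vehicle libraries of the same number correlated at 0.0141 over 14450 genes. DESeq2 1.42.0 was an alternative. Figures used matplotlib 3.10.9. Methods were tested on simulated data with known changes. The simulated libraries held no shift between cultures or in scaling, so they cannot tell how often calls in the real data are false. Uneven depth limits precision, since 43.3% of guides reached a mean vehicle count of 30.

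Members and the 37 gene lists were chosen with earlier results of these data known. Named genes were the 10 lowest and 10 highest NormZ with at least 3 guides, the members of the lists for CDK4, CDK6, D-type cyclins and pocket proteins and for CDK inhibitors, PSTK and SOD2, up to 4 called members per list and direction, and the 3 genes at each end of the comparisons with Abemaciclib and with Hep3B. Genes past the adjusted threshold against Abemaciclib were added. Gene lists were described by counts and medians and were not tested. Some members of these lists are not reported here.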

Additional observations from a re-analysis of the deposited data

Results flagged for a closer look

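In the direct comparison of Palbociclib with Abemaciclib in SNU-398, 4 genes passed an adjusted p under 0.05 for a difference between the 2 drugs, over libraries that may be technical repeats. EZH1 had a direct NormZ of -4.98 (adjusted p = 0.0058), with NormZ against vehicle of -4.00 with Palbociclib and 0.75 with Abemaciclib. FBXL18 had -4.49 (adjusted p = 0.0301), with -3.33 with Palbociclib and 0.62 with Abemaciclib. MON2 had -4.42 (adjusted p = 0.0301), with -1.99 with Palbociclib and 1.99 with Abemaciclib, so that neither drug alone passed p under 0.01. BEST1 had -4.30 (adjusted p = 0.0377), with -3.20 with Palbociclib and 1.11 with Abemaciclib. All 4 lost the adjusted threshold when only guides with a mean count of at least 30 in the Abemaciclib libraries were used. The groups hold 2 libraries each, too few to look for a library that stands apart. For the difference between SNU-398 and Hep3B, 0 genes passed an adjusted p under 0.05, which does not show that the lines respond alike.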

How the results depend on the processing

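NormZ of the palbociclib screen gave 267 to 297 resisters and 158 to 177 sensitizers at p under 0.01 when each library was left out in turn, and 5 to 9 resisters at an adjusted p under 0.05. Of the 286 resisters 183 to 228 (64% to 79.7%) and of the 171 sensitizers 110 to 129 (64.3% to 75.4%) were called again in these computations. Sensitizers were 89 without guides under a mean vehicle count of 30 and 107 with the same minimum at T0, and 6 passed the adjusted threshold with a pseudocount of 50. Against Abemaciclib, genes lower at an adjusted p under 0.05 were 2 with a pseudocount of 1, 1 with well counted guides and 1 to 3 with a replicate left out, and genes higher at p under 0.01 were 118 with well counted guides. Between the lines, 0 to 1 genes passed with a replicate left out. With Erastin, edgeR on all 16 libraries called 1702 lower and 1415 higher genes, 4192 lower and 3014 higher guides, 15 control guides, and 1210 lower and 1137 higher genes for vehicle against T0. Scaling by olfactory receptor and control guides left 2120 higher genes and turned the edgeR log2 fold change of CDK6 to -0.0878. Leaving out a library gave 2718 to 3090 lower and 2339 to 2662 higher genes, and 5881 to 8961 lower and 4590 to 5566 higher guides. DESeq2 called 3432 lower and 3091 higher genes. The cause of these shifts was not tested.

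With the replicate block edgeR called 3948 lower and 3492 higher genes, 10850 lower and 6611 higher guides and 31 control guides. NormZ pairs libraries by number as its method does. Without that pairing it gave 286 resisters and 172 sensitizers, with 7 resisters at an adjusted p under 0.05.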
